A study of Homo sapiens with 288 samples.

Results

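The genes examined here are 9 genes of the syncytiotrophoblast, the multinucleate outer layer of the placenta, chosen by symbol for their part in its hormone output, steroid metabolism and cell fusion. They are CGA, INHA and GDF15 among the hormones and secreted factors, GCM1, ERVW-1 and ERVFRD-1 among the genes of cell fusion, and HSD3B1, CYP19A1 and HSD11B2 among the steroid enzymes. Of these 9, the 6 genes CGA, INHA, GDF15, GCM1, HSD3B1 and HSD11B2 were among the 17492 protein-coding genes of the tables, while CYP19A1, ERVW-1 and ERVFRD-1 were not analysed here. Both cell types came from H1, an established human embryonic stem cell line. Endothelial cells (EC) were made by seeding H1 in E8 medium with BMP4 (5 ng/ml) and Activin A (25 ng/ml) for the first 2 days, followed by VEGF and WNT for 3 days. Trophoblast-like cells (TB) were grown in E7, which is E8 without FGF2, with BMP4 (50 ng/ml) and the Activin/Nodal pathway inhibitor SB431542. Single cells were captured on the Fluidigm C1 system, and the amplified cDNA of 45 EC and 51 TB cells was brought to an equal concentration before library preparation in 3 experiments. These were EQ, EQ-Vary, in which the pooling volume varied between cells, and EQ-75%, a repeat of EQ at lower depth. A same-numbered cell has the same cDNA in all 3. The labels name no separate cultures, so each cell type in each experiment is 1 sample, and no p-value is given.

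The syncytiotrophoblast forms when mononuclear cytotrophoblasts fuse, a step driven by the transcription factor GCM1 and by envelope proteins of captured retroviruses. It secretes chorionic gonadotropin, made of the alpha subunit encoded by CGA and a beta subunit of its own, together with inhibins, the stress-responsive factor GDF15 and steroids. HSD3B1 converts pregnenolone to progesterone in the placenta, CYP19A1 makes estrogen, and HSD11B2 inactivates cortisol before it reaches the fetus.

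The 6 genes lie on 5 chromosomes of GRCh38 in the GENCODE v44 annotation. CGA (ENSG00000135346) spans chr6:87085498-87095106 on the minus strand and INHA (ENSG00000123999) spans chr2:219569162-219575711 on the plus strand. GDF15 (ENSG00000130513) lies at chr19:18374731-18389176 on the plus strand and GCM1 (ENSG00000137270) at chr6:53126961-53148841 on the minus strand. HSD3B1 (ENSG00000203857) lies at chr1:119507198-119515054 and HSD11B2 (ENSG00000176387) at chr16:67430652-67437553, both on the plus strand. The canonical transcripts run from 710 bases in CGA to 2780 bases in GCM1.

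The promoter stretches of CGA, INHA and HSD3B1 are shown as examples of the hormone and steroid genes. No link between their motifs and the levels described below was tested. Each holds the 250 bases before the RefSeq start site, printed 5′ to 3′ on the strand of the gene (RefSeq, GRCh38.p14). Capitals mark 3 motifs searched on both strands, namely the cAMP response element TGACGTCA, the GATA motif AGATAA and the AP-2 motif GCCNNNGGC, and no 2 of the marked matches overlap. Only these forms were searched, and variants of the motifs are not marked or counted. The windows are chr6:87095107-87095356 for CGA, chr2:219572060-219572309 for INHA and chr1:119506953-119507202 for HSD3B1.
CGA: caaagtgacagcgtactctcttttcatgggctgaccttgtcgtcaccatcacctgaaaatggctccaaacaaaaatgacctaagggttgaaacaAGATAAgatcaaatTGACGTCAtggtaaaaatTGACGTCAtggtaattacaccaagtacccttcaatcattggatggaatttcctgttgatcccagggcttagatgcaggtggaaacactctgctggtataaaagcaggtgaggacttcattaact
INHA: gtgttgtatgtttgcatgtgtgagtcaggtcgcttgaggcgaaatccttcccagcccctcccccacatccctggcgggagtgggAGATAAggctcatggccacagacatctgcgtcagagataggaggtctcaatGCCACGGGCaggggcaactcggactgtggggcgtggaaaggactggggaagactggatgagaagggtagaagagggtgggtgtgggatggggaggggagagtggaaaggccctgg
HSD3B1: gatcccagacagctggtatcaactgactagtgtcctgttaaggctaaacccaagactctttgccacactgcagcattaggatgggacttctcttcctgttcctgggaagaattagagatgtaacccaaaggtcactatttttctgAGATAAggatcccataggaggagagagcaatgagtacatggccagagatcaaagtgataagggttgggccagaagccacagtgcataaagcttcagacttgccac

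The CGA stretch holds 2 copies of TGACGTCA, beginning 142 and 124 bases before the start site, and TGACGTCA occurs in 1.65% of 35116 promoter stretches of the same length. AGATAA occurs 1 time in each of the 3 stretches shown and in 9.17% of all, and GCCNNNGGC occurs 1 time in INHA and in 19.8% of all. The stretches of GCM1 and GDF15 hold 0 matches to any of the 3 motifs. A second RefSeq start of HSD3B1 lies 7 bases downstream. No stretch is shown for HSD11B2.

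Levels are given as CPM, the rounded count of a gene in a cell scaled to a total of 1000000, and detection in a cell needed a rounded count of 1 or more. Cells stayed in if their total count was at least 5.4 on the log10 scale and their 50 most abundant genes held at most 31% of it, which are the limits of the study. EQ kept 38 EC and 48 TB cells, EQ-Vary 38 and 46, and EQ-75% 39 and 50. The median total count of these cells ranged from 1499256 to 2025136 over the groups. The labels were checked against marker lists. Of 15 endothelial markers, 14 were at least 4-fold higher in EC and 0 in TB, with a summed level of 505 to 9761 CPM per EC cell and 3.43 to 100 CPM per TB cell. Of 13 trophoblast markers, 7 were at least 4-fold higher in TB and 0 in EC, with a summed level of 2026 to 17804 CPM per TB cell and 109 to 3962 CPM per EC cell, and CDX2 was detected in 1 of 48 TB cells and TP63 in 5. Markers of 2 other cell types were also higher in TB, since 6 of 8 amnion markers and 5 of 6 stromal markers were at least 4-fold higher in TB, with a median summed level in TB of 2662 and 3930 CPM against 19.9 and 30.7 CPM in EC. Of 6 extravillous trophoblast markers with a count, 0 were higher in TB and 3 in EC. Of 7 stem cell and 2 mesoderm markers with a count, 0 were called in either direction. The part of other cell types in the results below was not tested.

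The 6 genes fell into 3 patterns in EQ. HSD3B1 and INHA were high in a few TB cells and at or near 0 in the rest, CGA and GCM1 were at a low level in most cells of both types, and GDF15 and HSD11B2 were at 0 in nearly every cell. The difference between cell types was taken as log2 of the mean CPM plus 1 in TB over that in EC, and a value past 2 in either direction, which is a 4-fold difference, was called. By this rule, 2 of the 6 genes, HSD3B1 and INHA, were higher in TB in EQ, where 9.35% of 14881 genes with a count were higher in TB and 6.70% were higher in EC. The median over all these genes was 0.04. In EQ-Vary the same 2 genes passed (9.31% of genes higher in TB and 6.84% in EC), and in EQ-75% HSD3B1 alone did (9.63% and 6.27%). None of the 6 genes was called higher in EC in any of the 3 experiments. The 3 experiments share their cDNA and are not independent.

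**Figure D1:**
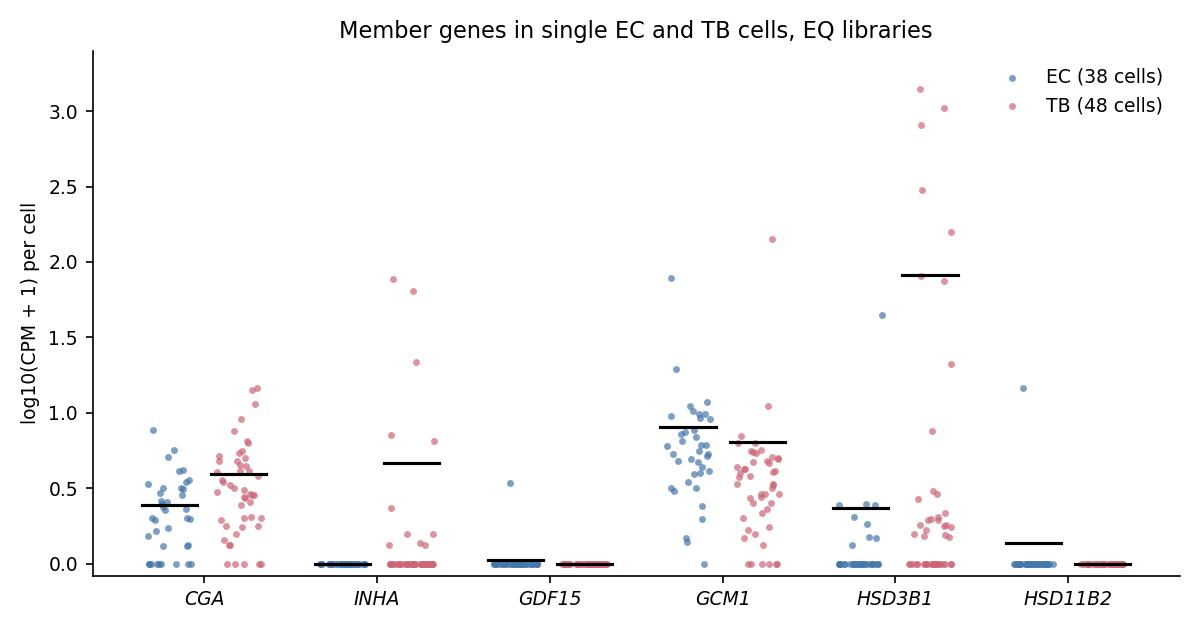
CPM of each gene in each cell of EQ, on the y axis as log10(CPM + 1), with 38 EC cells in blue and 48 TB cells in red and a black line at the mean CPM. HSD3B1 reached 1390 CPM and INHA 76.4 CPM in single TB cells, whereas CGA and GCM1 formed a low cloud in both types and GDF15 and HSD11B2 lay at 0 in all but 1 EC cell each.

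HSD3B1, the enzyme that makes progesterone, carried the largest difference of the 6. It was at 81.2 ± 273 CPM (SD, n = 48) in TB and 1.34 ± 7.0 CPM (SD, n = 38) in EC, and EQ, EQ-Vary and EQ-75% gave log2 ratios of 5.14, 5.41 and 4.85. The TB median was 0.531 CPM. Of 48 TB cells, 26 detected the gene (54.2%, exact binomial 95% interval 39.2 to 68.6), against 9 of 38 EC cells (23.7%, 11.4 to 40.2). These intervals and the others below cover counting error only. After every library was thinned to 250000 counts, the shares were 31.2% (18.7 to 46.3) in TB and 7.89% (1.66 to 21.4) in EC.

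A handful of TB cells held nearly all of the HSD3B1 counts. The 3 highest cells held 83.3% of the summed TB level, and without them the TB mean was 14.5 CPM and the log2 ratio 2.73. In EQ the gene was at 1390 CPM in TB 16, 1051 CPM in TB 45, 807 CPM in TB 13, 301 CPM in TB 40, 156 CPM in TB 30, 79.1 CPM in TB 8, 73.2 CPM in TB 25 and 19.9 CPM in TB 2. These 8 TB cells lay above 10 CPM, and the next was TB 23 with 6.52 CPM. Among EC cells, 1 was above 10 CPM, EC 4 with 43.3 CPM from 26 counts, so the groups overlapped.

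The high HSD3B1 cells were the same cells in each experiment. TB 16 was at 1390, 1341 and 977 CPM in EQ, EQ-Vary and EQ-75%, and TB 45 was at 1051, 1059 and 1021 CPM. TB 25, at 73.2, 73.7 and 70.4 CPM, kept its level as closely. Of the 8 cells, TB 40 failed the limits in EQ-Vary and TB 8 in EQ-75%, and each comparison with EQ therefore rested on 7 cells. The median log2 difference from EQ was 0.01 (SD 0.24, n = 7 cells) in EQ-Vary and -0.04 (SD 0.26, n = 7 cells) in EQ-75%. EC 4 was also high in each, at 43.3, 21.2 and 47.8 CPM. In EC 4 the trophoblast keratin KRT7 was at 0 CPM, the amnion marker VTCN1 at 5.00 CPM and the stromal marker LUM at 25.0 CPM. These values lay within the EC range, but KRT7 was detected in only 34 of 48 TB cells. The EC medians of VTCN1 and LUM were 3.24 and 7.96 CPM. EC 4 also held the highest CGA of the EC cells in EQ, 6.66 CPM. Whether EC 4 was a mixed cell was not tested.

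Single counts of HSD3B1 repeated less well than high values. Of the 45 TB cells that passed in all 3 experiments, 10 detected HSD3B1 in 3 libraries, 12 in 2, 13 in 1 and 10 in 0. HSD3B1 shares sequence with its neighbour HSD3B2, the adrenal and gonadal enzyme of the same step. In the longest annotated transcript of HSD3B1, 5.68% of the 51-base stretches, the length of the trimmed reads, occurred exactly in HSD3B2 and in no other protein-coding gene. Mapping allowed mismatches, and stretches that match with a mismatch were not counted. HSD3B2 was at 0 counts in the 7 TB cells with HSD3B1 above 50 CPM and had 27 counts in TB 2, where HSD3B1 had 53.

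**Figure D2:**
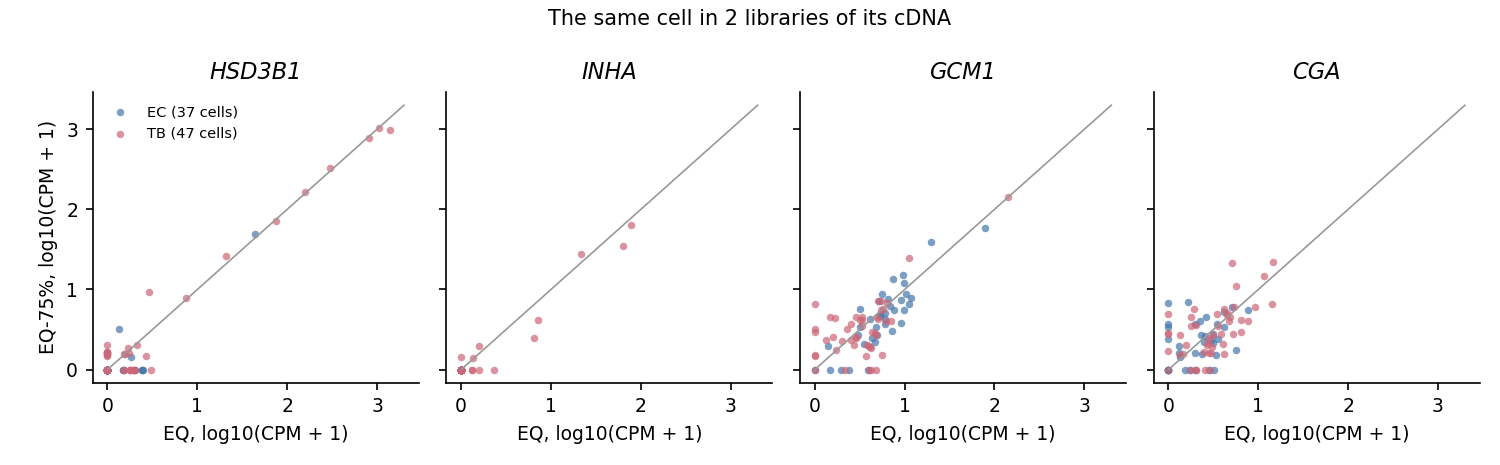
CPM in EQ (x axis) against EQ-75% (y axis), both as log10(CPM + 1), for 37 EC cells (blue) and 47 TB cells (red) that passed in both, with a grey line at equality. High values of HSD3B1 and INHA lay near the line, whereas most values of GCM1 and CGA were low and scattered around it.

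INHA, the alpha subunit of the inhibins, was found in TB cells and in no passing EC cell. It was detected in 11 of 48 TB cells in EQ (22.9%, 12 to 37.3), and in 6 of 46 and 9 of 50 in EQ-Vary and EQ-75%. In EC it was detected in 0 of 38, 0 of 38 and 0 of 39 cells, and 0 of 38, set at a limit of 3 cells, allows up to 7.89% of cells with a count. This limits cells with a count, not cells that express the gene. The summed TB count of 239 in EQ was, as CPM, at least 64.6-fold higher than the level that 3 counts would give over all EC libraries. The same bound was 55.5-fold in EQ-Vary and 42.6-fold in EQ-75%. On the log2(CPM + 1) scale the ratio was 2.22, 2.21 and 1.91, so INHA did not pass the 4-fold rule in EQ-75%. In EQ the call did not hold without TB 31, the highest cell, when the ratio was 1.63.

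The INHA level was also that of a few cells. The TB mean of 3.65 ± 14.3 CPM (SD, n = 48) came to 91.4% from 3 cells, and without these the mean was 0.336 CPM. TB 31 was at 76.4, 78.3 and 62.4 CPM in EQ, EQ-Vary and EQ-75%. TB 47 was at 63.0, 62.7 and 34 CPM, and TB 2 was at 20.6, 18.7 and 26.6 CPM. TB 15 came next with 6.14, 6.47 and 3.14 CPM. The INHA cells and the HSD3B1 cells were mostly not the same ones. TB 31 and TB 47 had 1.03 and 0 CPM of HSD3B1, and TB 16, TB 45 and TB 13 had 0 CPM of INHA, while TB 2 held both at about 20 CPM (19.9 and 20.6). Over the 48 TB cells, 4 detected both genes, 22 HSD3B1 alone, 7 INHA alone and 15 neither, and Spearman's rho was -0.08.

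CGA, the common alpha subunit of chorionic gonadotropin, was detected in most cells of both types and at a few counts. In EQ it was found in 43 of 48 TB cells (89.6%, 77.3 to 96.5) and in 29 of 38 EC cells (76.3%, 59.8 to 88.6). The level was 2.93 ± 3.11 CPM (SD, n = 48) in TB and 1.44 ± 1.48 CPM (SD, n = 38) in EC. TB ranged from 0 to 13.7 CPM with a median of 2.03, and EC from 0 to 6.66 CPM with a median of 1.13, so the groups overlapped over the whole EC range. The log2 ratio was 0.69, 0.73 and 0.63 in EQ, EQ-Vary and EQ-75%, and none passed 2. The direction turned to -0.62 when the libraries left out by the limits were kept. Among these was EC 41, with CGA at 144 CPM from 2 counts in a total of 13913. At 250000 counts the shares were 39.6% (25.8 to 54.7) in TB and 31.6% (17.5 to 48.7) in EC. Single TB cells lay above every passing EC cell in each experiment. TB 20 held CGA at 13.7, 21.9 and 21.1 CPM in EQ, EQ-Vary and EQ-75%, and TB 51 at 10.5, 12.6 and 13.8 CPM, whereas the highest EC values were 6.66, 7.85 and 5.98 CPM. Over the 45 TB cells that passed in all 3, Spearman's rho of CGA between libraries of the same cDNA was 0.62 to 0.77.

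GCM1, the transcription factor of trophoblast fusion, was likewise found in nearly all cells. It was detected in 42 of 48 TB cells (87.5%, 74.8 to 95.3) and in 37 of 38 EC cells (97.4%, 86.2 to 99.9). The median was 2.38 CPM in TB and 4.48 CPM in EC. It was also higher in EC in EQ-Vary (4.52 against 2.34 CPM) and in EQ-75% (3.67 against 2.06 CPM). The mean in EQ was 5.43 ± 19.9 CPM (SD, n = 48) in TB and 7.05 ± 12.3 CPM (SD, n = 38) in EC. The log2 ratio changed sign between experiments, at -0.32, -0.15 and 0.70 for EQ, EQ-Vary and EQ-75%. Single cells set these means. TB 49 held GCM1 at 140, 148 and 140 CPM in the 3 experiments, and without its highest cell the TB mean in EQ was 2.56 CPM. TB 28, which passed the limits only in EQ-75%, had 261 CPM there from 483 counts. Among EC cells, EC 9 stood apart with 77.4, 79.0 and 58.3 CPM. TB 49 and EC 9 repeated from library to library, as the high HSD3B1 cells did. For TB 28 this could not be judged. Its libraries in EQ and EQ-Vary held 0 counts of GCM1, but their totals were only 12434 and 5634. At such depth a level of 261 CPM would give only a few counts.

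The low values of CGA and GCM1 had a property that those of HSD3B1 and INHA lacked. RSEM, which estimated the counts, gives a gene a fraction of a read when the read also maps to another gene, so a value that is not whole carries reads shared among genes. Over all 96 libraries of EQ, 73 of 76 nonzero CGA values (96.1%) and 83 of 85 GCM1 values (97.6%) differed from a whole number by more than 0.01. For HSD3B1 this held for 4 of 40 values (10.0%) and for INHA for 2 of 11 (18.2%). In EQ-Vary and EQ-75% the shares were 90.8% and 92.2% for CGA, 97.5% and 96.5% for GCM1, and 17.5% and 18.8% for HSD3B1.

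A similar split ran through the genes under 10 CPM in both types. Of the genes, 642 shared the pattern of CGA and GCM1, a mean under 10 CPM in both types and detection in at least 50% of the cells of each (a definition set after their values were seen). Among these the median share of values that were not whole was 96.1%. Among the 2107 other genes under 10 CPM in both types with 10 or more nonzero values, it was 18.2%, and over all 12354 genes with that many it was 41.1%. Among the 9605 genes with at least 10 CPM in a type, HSD3B1 among them, it was 44.7%. Of those 9605, 29.7% had a share of 90% or more, so a high share was not limited to low genes. Of the 9 genes of the placental lists below with the same low pattern, 6 were also above 95%, namely LEP, INHBE, ALPP, SULT1E1, GFRAL and ERVMER34-1, against 71% for INSL4, 81.7% for LGALS14 and 81.2% for AKR1C1. The GENCODE v44 transcripts were searched for stretches that occur in other protein-coding genes. No 51-base stretch of CGA, GCM1 or INHA occurred exactly elsewhere. Mapping allowed mismatches, so this exact search does not show every read that could be shared. At 25 bases, GCM1 had 315 bases, between positions 1672 and 1993 of its transcript, in stretches that occurred in 2844 other genes. Of the 5 transcripts of CGA, 1 had 96 such bases, in stretches found in 332 other genes, and another had 29, in stretches found in NPAP1. INHA had 0. How much of the CGA and GCM1 level came from shared reads was not tested, and the deposited value of TB 49 for GCM1, 350, also holds a fraction.

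**Figure D3:**
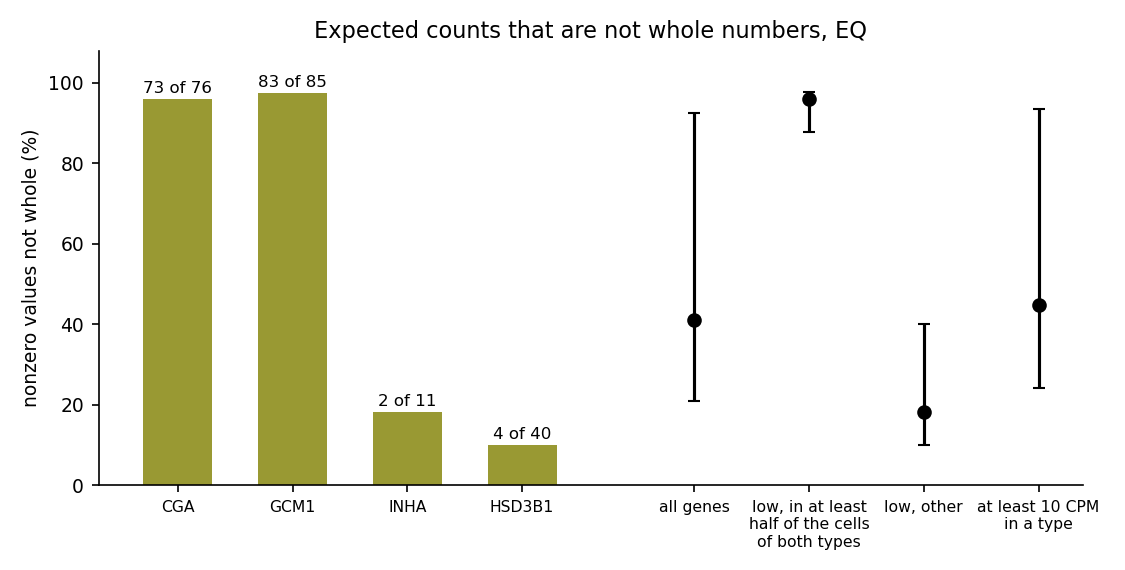
Percent of nonzero expected counts in EQ that were not whole (y axis), as bars for 4 genes with the number of values above, and as median (point) and quartiles (whiskers) for groups of genes; low means under 10 CPM in both types. CGA and GCM1, at 96.1% and 97.6%, stood at the level of the 642 low genes detected in at least 50% of the cells of both types. INHA, at 18.2%, stood at the median of the other low genes. HSD3B1, at 10.0%, lay below the lower quartile (24.1%) of the genes with at least 10 CPM in a type, the group that holds it.

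GDF15 and HSD11B2 were at 0 in all passing TB cells of EQ, which by the same limit allows up to 6.25% of the 48 cells to have a count. GDF15, a secreted factor of the TGF-beta family, was detected in EC 24 at 2.43 CPM from 8 counts in EQ, 4.99 CPM in EQ-Vary and 4.94 CPM in EQ-75%. No other passing EC cell held it in EQ or EQ-75%, and 1 did in EQ-Vary. In EQ-75% it was also detected in TB 48, at 20.3 CPM from 22 counts, a cell that passed the limits only there. HSD11B2, the cortisol-inactivating enzyme, was detected in EC 11 alone, at 13.7, 13.4 and 3.65 CPM in the 3 experiments, from 28 counts in EQ. Each gene was thus found in 1 EC cell in EQ, and the other 2 libraries of that cell held it too.

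Scaled by transcript length, the TB means in EQ were 48.7 CPM per kb for HSD3B1, 4.13 for CGA, 2.70 for INHA and 1.95 for GCM1, and 0 for GDF15 and HSD11B2. In EC the order was GCM1 with 2.53 CPM per kb, CGA with 2.03 and HSD3B1 with 0.801. In TB the SD between cells was above the mean for each of the 4 detected genes, HSD3B1 included, and the order of the means was not tested. The TB medians, not scaled by length, were 0.531 CPM for HSD3B1, 2.03 for CGA, 2.38 for GCM1 and 0 for INHA.

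Of the 6 genes, a TB cell detected 2.54 ± 0.824 (SD, n = 48) and an EC cell 2.03 ± 0.716 (SD, n = 38) in EQ. No TB cell detected more than 4, the most possible with GDF15 and HSD11B2 at 0 in all of them. Of 119 detections of the 6 genes in TB cells in EQ, 96 were seen again in EQ-75% (80.7%, 72.4 to 87.3), and 98 of 116 in EQ-Vary (84.5%), against 90.5% and 92.1% over all genes.

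The genes whose levels ran most like each of the 3 most often detected genes were sought over the 48 TB cells among 9483 genes detected in at least 50% of them. For CGA they were SCIN, IYD and DNAL1, with rho of 0.65, 0.58 and 0.58 in EQ. The same pairs gave 0.40, 0.31 and 0.41 with EQ-Vary libraries, while EQ-75% gave 0.24, 0.41 and 0.49. For GCM1 they were KLK7, SEC14L5 and ZNF583, at 0.64, 0.60 and 0.60 in EQ but 0.13 to 0.43 in the other experiments. For HSD3B1 they were SPDYE6, ANGEL1 and ALDH5A1, at 0.56, 0.54 and 0.53 in EQ and -0.03 to 0.40 in the others. Of the nonzero values of these 9 genes, 76.3% were not whole for SPDYE6 and 95.5% to 98.9% for the other 8. The genes share libraries and depth in each cell, and in these sparse counts the similarities are a description only.

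The pathways around the 6 genes were described with lists of 106 genes, 95 of them in the tables and 82 with a count. Of these 82, 14 were at least 4-fold higher in TB and 10 higher in EC in EQ, with a median log2 ratio of -0.03, beside 9.35% and 6.70% of all genes. The partners of CGA were nearly silent. Of 7 gonadotropin beta and pituitary genes, 4 had a count, and CGB1 was detected in 3 of 48 TB cells, CGB2 in 2, CGB5 in 2 and CGB8 in 1, and none of them in EC. CGB5, a beta subunit gene of chorionic gonadotropin, reached 22.3 CPM in 1 cell. These beta genes are near-identical copies, so counts may be split among them. Of 9 placental lactogen and pregnancy-specific glycoprotein genes, 6 had a count and 0 passed in either direction.

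In the inhibin and activin list, the beta A subunit and follistatin were higher in TB. Of 8 genes with a count, 2 were higher in TB and 0 in EC, and the median log2 ratio was 0.77. INHBA, the beta A subunit that pairs with INHA to make inhibin A or with itself to make activin A, was at 180 ± 254 CPM in TB (SD, n = 48) and 1.99 ± 8.51 CPM in EC (SD, n = 38), a log2 ratio of 5.92. It was detected in 48 of 48 TB cells, with a median of 69.1 CPM and a range from 0.672 to 1208 CPM, against 11 TB cells for INHA. FST, the follistatin that binds activin, had a ratio of 3.94, at 260 ± 216 CPM in TB and 16 ± 43.6 CPM in EC.

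Of 12 other steroid synthesis and cholesterol genes with a count, 1 was higher in TB and 2 in EC, with a median of 0.01. Over all genes with a count in EQ, 9.35% were higher in TB and 6.70% in EC. The 1 higher in TB was POR, with log2 ratios of 2.94, 1.37 and 2.59 in EQ, EQ-Vary and EQ-75%. In EQ its highest TB cell was at 1885 CPM. CYP11A1, which makes the pregnenolone that HSD3B1 uses, was at 6.85 ± 26.9 CPM in TB and 4.84 ± 29.6 CPM in EC. It was detected in 14 of 48 TB and 4 of 38 EC cells, with a median of 0 CPM in both types. Single cells reached 173 CPM in TB and 183 CPM in EC and set much of each mean. CYP11A1 was at 0 CPM in TB 16 and TB 13 and at 4.0 CPM in TB 45, the 3 cells highest in HSD3B1. STS, the sulfatase that frees steroids for placental estrogen synthesis, was by contrast found in 48 of 48 TB cells at 239 ± 200 CPM, against 1.15 ± 2.02 CPM in EC, a log2 ratio of 6.80. Its range was 2.33 to 820 CPM in TB and 0 to 10.6 CPM in EC, so the groups overlapped at the low end of TB. Of 10 genes of steroid inactivation, sulfation and uptake, STS was the 1 called higher in TB, and AKR1C3, a ketosteroid reductase, the 1 called higher in EC (log2 ratio -4.01).

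Among the other hormones, 2 of 13 genes with a count were higher in TB and 1 in EC. PAPPA2, a protease of insulin-like growth factor binding proteins made by the placenta, was at 1074 ± 640 CPM in TB and 3.24 ± 3.59 CPM in EC (log2 ratio 7.99), and its ranges of 119 to 3597 and 0.498 to 21.4 CPM did not overlap. CRH, placental corticotropin-releasing hormone, was high in some TB cells and low in most. It was detected in 31 of 48 TB cells with a median of 1.38 and a highest value of 735 CPM, and its mean was 43 ± 118 CPM in TB against 0.0584 ± 0.200 CPM in EC (log2 ratio 5.38). Of the 8 cells above 10 CPM of HSD3B1, TB 8 held CRH at 245 CPM and the other 7 at 0 to 2.74 CPM. FLT1, the VEGF receptor that endothelial cells carry and the placenta sheds, was higher in EC (log2 ratio -6.27).

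Of 10 genes of syncytiotrophoblast surface and transcription, 5 were higher in TB and 2 in EC, with a median of 1.74. PPARG, a nuclear receptor of trophoblast differentiation, was at 25.4 ± 54.0 CPM in TB and 0.179 ± 0.286 CPM in EC, a log2 ratio of 4.48, and NR2F2 had a ratio of 4.19. LMO2, a cofactor of blood and endothelial cells, was higher in EC at -4.73. Of 10 fusion and retroviral envelope genes, CDH1, the epithelial cadherin, was the 1 higher in TB (4.81, 558 ± 343 against 18.9 ± 11 CPM). The neutral amino acid transporter SLC1A4 (-6.14) and the gap junction gene GJA1 (-4.95) were higher in EC. SLC1A4 was near 0 in TB in EQ, at 0.0689 CPM in 6 of 48 cells. Its ratio was -5.95 in EQ-Vary but -3.40 in EQ-75%, while that of GJA1 was -4.89 and -5.14. Of 10 genes of GDF15 and the stress response, 2 were higher in each direction, among them TRIB3 (-3.97) and CHAC1 (-3.42), targets of the integrated stress response, in EC. Of the nonzero values of TRIB3, CDH1 and FLT1 in EQ, 90.3%, 93.7% and 91.7% were not whole.

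**Figure D4:**
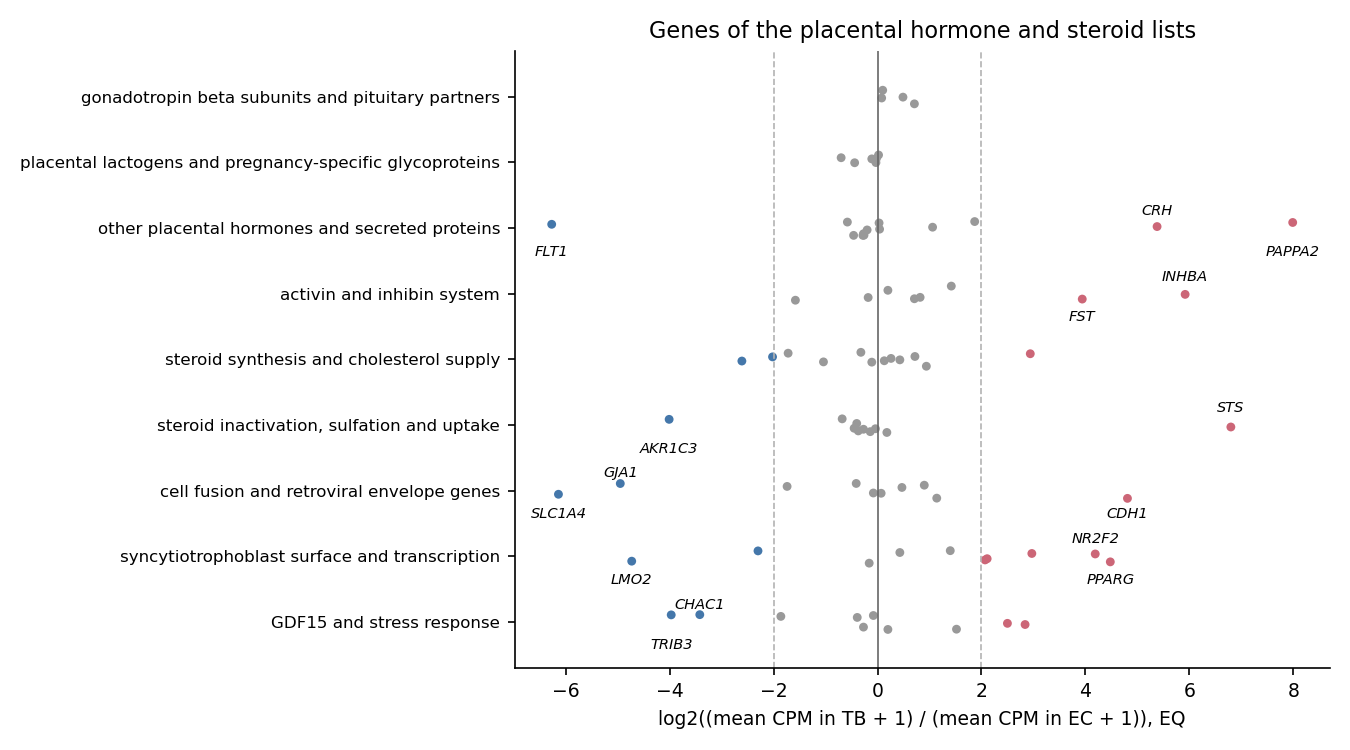
Log2 ratio of TB over EC in EQ (x axis) for each gene with a count in 9 lists (y axis), in red where at least 4-fold higher in TB, in blue where at least 4-fold higher in EC and in grey between, with dashed lines at 2 and -2. The gonadotropin beta and the lactogen lists lay near 0, and PAPPA2 at 7.99 and STS at 6.80 lay farthest towards TB.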

How the data were processed

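Values were expected counts as the authors deposited them, for 17492 genes and 288 libraries. Per the methods, reads were trimmed to 51 bp and mapped to GRCh38 Ensembl genes with Bowtie 1.2.3, with mismatches allowed. RSEM 1.2.31 estimated the counts, which were not normalized. All sample columns were used (0 unused). Expected counts were rounded, scaled to CPM and cells were left out by the limits of the study, with a pseudocount of 1 CPM in ratios.

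The members and gene lists were chosen with earlier results of these data known. The rule named all 9 members, the first 15 pathway genes by size of ratio among those past 4-fold with at least 10 CPM in a type, and the 3 genes with the highest rho for each member detected in at least 50% of the TB cells. Other genes named were chosen after their values were seen. The comparison of values that are not whole and the search for shared stretches were added after the data were seen. Each cell type in an experiment is 1 sample, so no test was run. Reads carry no molecular identifiers, and doublets were not called here, since the study removed cells by image in its first experiment. The median total count was 1499256 or more in each group, and 1 count carries an error as large as itself. Thinning and the ratios were tested on simulated data. There only genes with means above those of most members were changed, and cells of a type differed by depth and sampling alone. Levels set by a few cells were therefore not covered. Alternatives covered the cell limits, rounding, depth, scaling, the highest cells, the pseudocount, the summary of a group and the experiment. Gene positions and transcripts were from GENCODE v44 and promoters from RefSeq, with windows for 5 of the 6 listed members. The software was matplotlib 3.10.9, scipy 1.17.1, pandas 2.3.3 and numpy 2.4.6 under Python 3.11.15.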

Additional observations from a re-analysis of the deposited data

Results flagged for a closer look

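Libraries that the limits left out held members above every passing EC cell of the same experiment in 5 cases, each on more than 3 counts. HSD3B1 was at 322 CPM in TB 28 of EQ from 4 counts of 12434, and at 226 CPM in TB 40 of EQ-Vary from 31 counts of 137013. It was also at 870 CPM in EC 1 of EQ-Vary from 5 counts of 5745. GDF15 was at 25.3 CPM in EC 40 of EQ from 5 counts of 197931, and at 48.5 CPM in the EQ-75% library of the same cell from 9 counts of 185587. TB 40 held HSD3B1 at 301 CPM in EQ and 325 CPM in EQ-75%, where it passed. TB 28 passed in EQ-75%, with HSD3B1 at 49.8 CPM there. No explanation was tested for these values.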

How the results depend on the processing

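HSD3B1 had log2 ratios from 2.73 to 5.96 over the alternatives that changed 1 choice, all above 2, and INHA ranged from 0.42 to 5.23. Without the 3 highest TB cells, the HSD3B1 ratio was 2.63 for EQ-75% and 2.33 for EQ-Vary, and the INHA ratio was 0.41 and 0.22. The count of members at least 4-fold higher in TB fell from 2 to 1, HSD3B1 alone, with the highest cell of each gene left out, with a pseudocount of 10 CPM, with CPM of summed counts, in EQ-75% and, added after the data were seen, with the 3 highest TB cells left out. It was 2 under the other alternatives. Members per TB cell moved from 2.54 to 1.23 with a minimum of 5 counts and to 1.27 at 250000 counts, and the share seen again in EQ-75% moved from 80.7% to 62.1% and 45.8%. By construction, both settings leave fewer counts to detect. Over these main results 22 values kept within their limits and 9 moved, and over single genes 99 and 15. CGA ranged from -0.62 (all cells kept) to 0.98, GCM1 from -1.28 (3 highest TB cells left out) to 0.70, GDF15 from -0.86 to 0.32 and HSD11B2 from -2.20 to 0.00, so none of these directions held throughout except that HSD11B2 was never higher in TB. No fit with a replicate block was made, since the results come from no test, and libraries of the same cell were compared within cells.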
